A study of Mus musculus with 4 samples.

Results

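Mural cell markers are described here in liver macrophage libraries: 10 genes that mark the cells wrapped around blood vessels, namely pericytes, vascular smooth muscle cells and, in the liver, stellate cells. They are Acta2, Tagln, Myh11, Des, Pdgfrb, Rgs5, Cspg4, Kcnj8, Abcc9 and Vtn, chosen by gene name from the 23337 names in the deposited tables, and each stands on 1 row. RNA came from sorted Kupffer cells, macrophages that live in the liver sinusoids, of Lyz2cre-RosaYFP reporter mice of both sexes, 6 to 8 weeks old. In these mice Cre recombinase is made from the lysozyme gene Lyz2, which is active in myeloid cells, and turns on a Rosa reporter that makes YFP, a yellow fluorescent protein. All 4 libraries come from such mice: 2 from YFP+ cells and 2 from YFP- cells. One title in each group begins with M and the other with FM, which the labels do not explain, and nothing says how many animals a library holds. The spread between libraries may therefore be technical.

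Mural cells contract and relax small vessels, stabilise the endothelium and lay down matrix. Endothelial cells recruit them with platelet-derived growth factor B, which binds the receptor encoded by Pdgfrb. Smooth muscle cells are defined by contractile proteins, whose genes are switched on by serum response factor and its myocardin-family partners. Brain pericytes carry a potassium channel gated by ATP, and hepatic stellate cells, the mural cells of the liver sinusoid, store vitamin A and make desmin at rest and smooth muscle actin when activated. Which cells the mural RNA in these libraries came from was not tested.

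The 4 libraries differed in far more than mural genes. The summed level of 6 Kupffer cell markers (Clec4f, Timd4, Vsig4, Cd5l, Marco and Folr2) was 31449 and 28679 TPM in the YFP+ M and FM libraries, against 5117 and 11085 TPM in the YFP- M and FM libraries, where TPM, transcripts per 1e+06 transcripts, is a level per gene length. That of 8 microglia markers (such as Tmem119 and P2ry12) was 985 and 74.2 TPM in YFP+ libraries, against 16978 and 15845 TPM in YFP- libraries. Genes that define brain macrophages were thus above the Kupffer cell markers in both YFP- libraries, although the labels name liver as the tissue. Depth is known only from read coverage, which at 1 FPKM (fragments per kilobase of gene, scaled to library size) was between 2.59 and 9.19 over the libraries. The median log2 change of the 12251 genes tested was -1.73, so the typical gene was lower in YFP+ libraries.

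Every one of the 10 mural genes was lower in both YFP+ libraries than in both YFP- libraries, an arrangement that 70.0% of all genes with any signal also had. Acta2, smooth muscle alpha actin, the thin filament protein of the contractile apparatus, had 3.18 and 0.558 TPM in the YFP+ M and FM libraries, against 55.2 and 73.5 TPM in the YFP- M and FM libraries. The groups lay far apart, and the YFP+ M library was above the YFP+ FM library. Its log2 fold change, computed on log2(TPM + 1), was -4.66 (SE 1.14, adjusted p = 0.000864, limma with Benjamini-Hochberg adjustment over 12251 genes), a 25.4-fold lower level on that scale. Here and below, fewer cells of a type in a library and less RNA per cell cannot be told apart.

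Tagln, transgelin or SM22, an actin-binding protein of smooth muscle, had 1.65 and 0.329 TPM in YFP+ libraries (M, then FM, as in all pairs below), against 18.0 and 17.8 TPM in YFP- libraries. The YFP- values were nearly equal and the YFP+ values differed. The log2 fold change of Tagln was -3.33 (SE 1.02, adjusted p = 0.00713). Annotated Tagln exons overlap exons of Pcsk7 on the opposite strand, and whether the libraries kept strand is not stated in those sources that were used. Pcsk7, a protein-processing protease gene named after its values were seen, was itself at 10.7 and 4.18 TPM in YFP+ libraries, against 17.0 and 46.5 TPM in YFP- libraries.

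Myh11, the smooth muscle myosin heavy chain and the strictest marker of differentiated smooth muscle, had 0.203 and 0.0215 TPM in YFP+ libraries, against 4.56 and 7.12 TPM in YFP- libraries. Mean read coverage over Myh11 in the YFP+ FM library was 0.0452, so that value rests on very few reads. Its log2 fold change was -2.60 (SE 0.55, adjusted p = 0.000246). Des, desmin, the intermediate filament of muscle and of resting stellate cells, had 0.680 and 0.696 TPM in YFP+ libraries, against 4.24 and 6.95 TPM in YFP- libraries. Unlike Acta2, Tagln and Myh11, Des stood at about the same level in both YFP+ libraries. Its log2 fold change was -1.93 (SE 0.67, adjusted p = 0.0174), but the direction was lost under quantile normalization (0.0014).

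**Figure D1:**
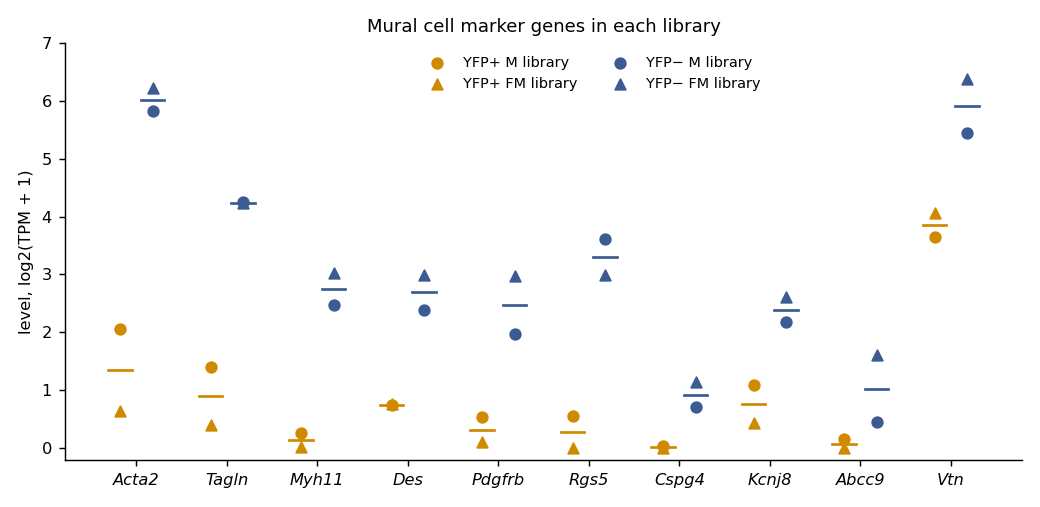
Level of each of the 10 mural genes as log2(TPM + 1), with YFP+ libraries to the left of YFP- libraries; circles are M libraries, triangles FM libraries, and short lines the mean of 2 libraries. No gene has a YFP+ point at or above a YFP- point, Vtn is the only gene whose YFP+ points stay above 3, and the YFP+ points of Des nearly coincide.

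Among the receptor and signalling genes, Pdgfrb, the receptor through which mural cells are recruited, had 0.456 and 0.0725 TPM in YFP+ libraries, against 2.92 and 6.82 TPM in YFP- libraries. The fitted difference was -2.15 on the log2 scale (SE 0.53, adjusted p = 0.000971). Rgs5, a regulator of G protein signalling enriched in pericytes, had 0.471 TPM in YFP+ M and was listed at 0 in YFP+ FM, against 11.2 and 6.95 TPM in YFP- libraries. It was the only mural gene apart from Tagln that was higher in the YFP- M than in the YFP- FM library. The log2 fold change of Rgs5 was -3.02 (SE 0.70, adjusted p = 0.000484). Cspg4, the NG2 proteoglycan of pericytes and of oligodendrocyte precursors, had 0.0230 TPM in YFP+ M and was listed at 0 in YFP+ FM, against 0.635 and 1.20 TPM in YFP- libraries. Cspg4 did not reach the minimum of 1 TPM in 2 libraries and was not tested with the other genes. The summed level of 4 oligodendrocyte precursor markers (Pdgfra, Olig1, Olig2 and Sox10) was 0.0567 TPM in YFP+ M with all 4 listed at 0 in YFP+ FM, against 3.17 and 3.51 TPM in YFP- libraries. Their part in the Cspg4 difference was not tested.

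Kcnj8 and Abcc9 encode the pore (Kir6.1) and the regulatory subunit (SUR2) of the vascular ATP-sensitive potassium channel, and lie next to each other on chromosome 6, 16247 bases apart in GRCm38. Kcnj8 had 1.14 and 0.357 TPM in YFP+ libraries, against 3.51 and 5.11 TPM in YFP- libraries. Its log2 fold change of -1.62 was the smallest of the 8 tested mural genes (SE 0.61, adjusted p = 0.0267), and it turned to 0.17 under quantile normalization and 0.08 under cyclic loess. Abcc9 had 0.121 TPM in YFP+ M and was listed at 0 in YFP+ FM, against 0.365 and 2.05 TPM in YFP- libraries, and was not tested. The YFP- libraries thus differed more in Abcc9 than in Kcnj8. The relatives that form the channel of pancreatic beta cells and neurons, Kcnj11 and Abcc8, were listed at 0 in both YFP+ libraries. In YFP- libraries Kcnj11 was at 0.0442 TPM in M and listed at 0 in FM, while Abcc8 was listed at 0 in M and at 0.0540 TPM in FM.

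Vtn, vitronectin, is a plasma adhesion protein secreted by hepatocytes and is also a marker of brain pericytes. It had 11.6 and 15.7 TPM in YFP+ libraries, against 42.2 and 81.7 TPM in YFP- libraries. It was the most abundant of the 10 genes in YFP+ libraries, and the groups did not overlap. Its log2 fold change of -2.05 did not pass (SE 1.07, adjusted p = 0.103), and under median-ratio scaling its direction turned (0.16). The summed level of the hepatocyte markers Alb, Apoa1 and Ttr was 261 and 583 TPM in YFP+ libraries, against 1284 and 1941 TPM in YFP- libraries. Of the 3, Ttr alone was called lower, at 55.5 and 51.9 TPM in YFP+ libraries, against 1053 and 830 TPM in YFP- libraries. Alb, at 156 and 378 against 183 and 1066 TPM, was not called. Apoa1 was higher in both YFP+ libraries, at 48.8 and 153 against 47.9 and 44.7 TPM, and was not called. The difference in the sum therefore does not hold for each of the 3 genes. Like Vtn, the sum was higher in the FM than in the M library of each group, and its part in the Vtn values was not tested.

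The order of levels also differed between groups. In YFP+ libraries Vtn averaged 13.6 ± 2.88 TPM (SD, n = 2, as for all means here) and stood apart from Acta2 at 1.87 ± 1.85 TPM. Acta2 was followed by Tagln at 0.991 ± 0.936, Kcnj8 at 0.749 ± 0.554 and Des at 0.688 ± 0.0116 TPM, none of which differed from its neighbour beyond the spread. The other YFP+ means were 0.264 ± 0.271 TPM for Pdgfrb, 0.235 ± 0.333 for Rgs5, 0.112 ± 0.129 for Myh11, 0.0606 ± 0.0857 for Abcc9 and 0.0115 ± 0.0163 for Cspg4. In YFP- libraries Acta2 at 64.4 ± 12.9 TPM and Vtn at 62.0 ± 27.9 TPM led and were not separated by their spread. Tagln followed at 17.9 ± 0.139 TPM and Rgs5 at 9.08 ± 3.01 TPM, each clear of the gene above it. Myh11 at 5.84 ± 1.81, Des at 5.59 ± 1.92, Pdgfrb at 4.87 ± 2.76 and Kcnj8 at 4.31 ± 1.13 TPM formed a group whose values overlapped. Abcc9 at 1.21 ± 1.19 and Cspg4 at 0.917 ± 0.398 TPM were lowest.

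Within the summed TPM of the 10 genes, Vtn alone made up 59.4% and 88.5% in YFP+ libraries, against 29.6% and 39.1% in YFP- libraries. Acta2 made up 16.3% and 3.15% in YFP+ libraries, against 38.7% and 35.1% in YFP- libraries. One scaling factor per library leaves these shares as they are, whereas quantile normalization and loess do not. Without Vtn, the other 9 genes summed to 7.93 and 2.03 TPM in YFP+ libraries, against 101 and 127 TPM in YFP- libraries.

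Set against the YFP- library of the same title start, the mural genes were reduced to unequal degrees. In the M libraries the YFP+ level was 3.62% of the YFP- level for Cspg4, 4.196% for Rgs5, 4.46% for Myh11 and 5.76% for Acta2. It was 9.21% for Tagln, 15.6% for Pdgfrb, 16.0% for Des, 27.5% for Vtn, 32.5% for Kcnj8 and 33.2% for Abcc9. In the FM libraries it was lower for every gene, at 0.302% for Myh11, 0.760% for Acta2, 1.06% for Pdgfrb, 1.86% for Tagln, 6.99% for Kcnj8, 10.02% for Des and 19.2% for Vtn, with Rgs5, Cspg4 and Abcc9 listed at 0. Acta2 and Myh11 were thus below Des, Kcnj8 and Vtn in both pairs. The median log2 difference of the 10 genes was -1.71 for the M pair and -2.59 for the FM pair, beside -1.01 and -2.48 for all 12251 tested genes.

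Markers of other cell types moved by unequal amounts, and their part in the mural results was not tested. The YFP+ sum was 5.80% (M) and 0.468% (FM) of the YFP- sum for the microglia markers, and 4.37% and 1.02% for the brain endothelium markers Cldn5, Slco1c1 and Abcb1a. It was 4.77% and 0.637% for 3 oligodendrocyte markers, 47.6% and 11.4% for 3 astrocyte markers and 20.3% and 30.0% for the 3 hepatocyte markers, while the Kupffer cell markers stood at 615% and 259%. Single genes made up most of some sums. Of the 21.3 TPM of the astrocyte sum in YFP+ M, 20.2 TPM was Slc1a2, at 68.2% and 17.4% and not called. The other 2 astrocyte markers were called lower. Of the 1284 TPM of the hepatocyte sum in YFP- M, 1053 TPM was Ttr, at 5.27% and 6.25%. Alb stood at 85.3% and 35.4%, and Apoa1 at 102% and 343%. The fixed pericyte and smooth muscle lists contain 5 and 3 of the mural genes themselves. With these left out, a split made after their values were seen, the other 3 pericyte markers stood at 5.50% and 0.612% and the other 3 smooth muscle markers at 7.36% and 3.67%. For the liver sinusoidal endothelium markers Stab2, Clec4g and Oit3 the YFP+ sum was 54.5% and 36.1% of the YFP- sum. No member of that liver trio was called, and all 3 brain endothelium markers were called lower. A separate list of 8 liver sinusoidal genes had 2 called lower and 0 higher, beside 39.5% of all tested genes called lower. These were Fcgr2b, at 16.3% and 8.37% (log2 fold change -3.07, limma adjusted p = 0.00555), and Lyve1, at 27.2% and 2.11% (-3.34, 0.0151). None of the 8 was called lower under the 3 other scalings. In the YFP+ FM library Rgs5, Abcc9, Higd1b, Atp13a5 and Cspg4 of the pericyte markers and Cnn1 and Lmod1 of the smooth muscle markers were listed at 0, as was Cnn1 in YFP+ M, while none was at 0 in a YFP- library.

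**Figure D2:**
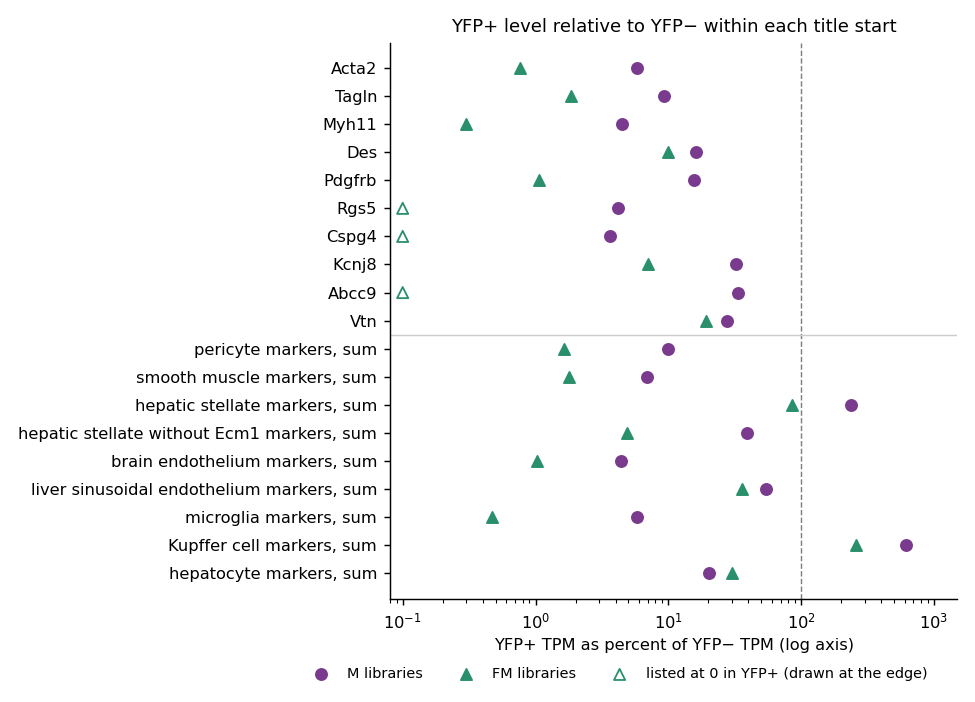
YFP+ level as a percent of the YFP- level of the same title start, on a log axis, for the 10 mural genes (above the line) and for summed marker levels (below it); circles are M libraries and triangles FM libraries, open triangles are genes listed at 0, and the dashed line is equality. All mural genes lie left of equality, and Acta2 and Myh11 lie nearer to the microglia and brain endothelium sums than to that of liver sinusoidal endothelium. Vtn (27.5% and 19.2%) and Kcnj8 (32.5% and 6.99%) lie nearer to the liver sinusoidal endothelium sum (54.5% and 36.1%), as does Abcc9 in M (33.2%). The pericyte and smooth muscle sums include mural genes drawn above the line.

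Stellate cell markers differed widely in level. The summed level of Lrat, Reln, Hand2, Colec11, Ecm1 and Hgf was 95.7 and 64.6 TPM in YFP+ libraries, against 40.4 and 75.7 TPM in YFP- libraries, and nearly all of it was Ecm1, an extracellular matrix protein, at 93.8 and 64.2 against 35.6 and 68.5 TPM. Without Ecm1, a split made after its values were seen, the other 5 genes summed to 1.86 and 0.352 TPM in YFP+ libraries, against 4.76 and 7.15 TPM in YFP- libraries. Lrat, the enzyme that stores vitamin A as esters and defines stellate cells, was at 0.134 TPM in YFP+ M and listed at 0 in YFP+ FM, against 1.17 and 0.475 TPM in YFP- libraries. Hand2, a transcription factor of stellate cells, was at 0.0748 TPM in YFP+ M and 0.0448 TPM in YFP- M, and was listed at 0 in both FM libraries. Hgf, hepatocyte growth factor, was at 0.603 and 0.0435 TPM in YFP+ libraries, against 0.704 and 3.85 TPM in YFP- libraries, and the collectin Colec11 at 0.904 and 0.309 TPM in YFP+ libraries, against 2.42 and 2.39 TPM in YFP- libraries. The part of stellate cells in the mural values was not tested.

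Across all genes, limma called 7 of the 8 tested mural genes lower in YFP+ libraries and 0 higher, beside 39.5% of all tested genes called lower and 0.522% called higher. Of these 8, only Vtn reached 1 TPM in every library. The other 7 would not have entered the test without their YFP- libraries, and 4 of them were below 1 TPM in both YFP+ libraries. Their calls were thus favoured by the filter, and the count says little by itself. With no filter all 10 were tested and 7 were called lower, beside 28.7% of 17630 genes lower and 0.346% higher, with Des (adjusted p = 0.0638), Kcnj8 (0.0836) and Vtn (0.102) not passing. Cspg4 (log2 fold change -0.91, adjusted p = 0.00309) and Abcc9 (-0.95, adjusted p = 0.0118) passed there, although the values behind them are close to 0.

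Acta2 was the gene called under all 4 scalings, the deposited TPM and 3 others. Under quantile normalization Acta2 alone passed (log2 fold change -2.85, adjusted p = 0.0311), beside 1.67% of all genes called lower and 1.21% higher. Under cyclic loess Acta2 alone passed again (-2.54, adjusted p = 0.0467), beside 0.327% lower and 0.531% higher. Median-ratio scaling called Acta2 (-2.91, adjusted p = 0.00309), Rgs5 (-1.99, 0.00739), Myh11 (-1.60, 0.00893) and Tagln (-1.78, 0.0314), 4 of 8, beside 6.45% lower and 6.20% higher. Without the YFP- M library 3 of the 8 were called and without the YFP- FM library also 3, namely Rgs5, Pdgfrb and Myh11 each time, and Acta2 missed with adjusted p of 0.129 and 0.242. An exact permutation test of 2 against 2 libraries cannot give a two-sided p below 0.333.

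**Figure D3:**
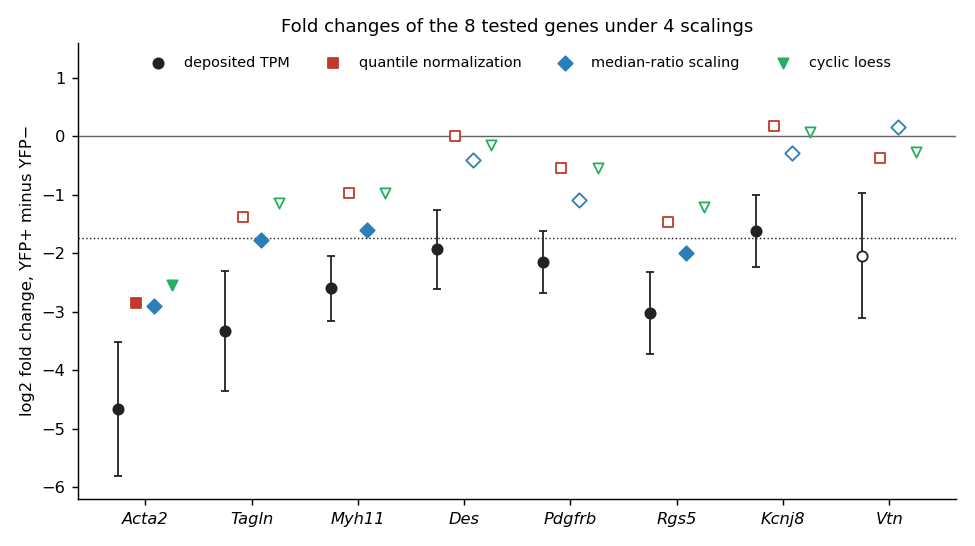
Log2 fold change, YFP+ minus YFP-, of the 8 tested mural genes on deposited TPM (circles, bars are the standard error of limma) and after 3 other scalings; filled symbols passed an adjusted p of 0.05, and the dotted line is the median of all tested genes on deposited TPM (-1.73). Only Acta2 is filled in all 4, and Des, Kcnj8 and Vtn approach or cross 0 after rescaling.

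Because Acta2 belongs to a family of close relatives that macrophages express at high level, its reads could in part be shared. The coding sequence of Acta2, read from GENCODE M21 transcripts, was 82.85% identical to that of Actb, 81.5% to Actg1, 84.2% to Actg2 and 85.4% to Acta1. The longest run without a difference was 56 coding bases with Actg1 and 47 with Actb. That run is shown with 20 bases on either side, capitals marking bases at which the 2 genes differ, since it is where short reads separate them least.
Acta2, coding bases 890 to 985: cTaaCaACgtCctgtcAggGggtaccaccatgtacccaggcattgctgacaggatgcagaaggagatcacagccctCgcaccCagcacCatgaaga
Actg1, coding bases 884 to 979: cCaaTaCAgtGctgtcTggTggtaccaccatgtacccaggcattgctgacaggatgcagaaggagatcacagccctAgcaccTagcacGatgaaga
In GRCm38, Acta2 lies on the minus strand of chromosome 19 (34241091 to 34255336 in the deposited tables) and Actg1 on the minus strand of chromosome 11. The 96-base windows differ at 10 positions, all outside the shared run. How the authors' processing assigned reads within such runs is not stated in those sources that were used.

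Most listed non-muscle relatives of the muscle genes were not called, and the difference between them and the muscle genes was not tested. Actb, cytoplasmic beta actin, had 7353 and 6076 TPM in YFP+ libraries, against 4067 and 4706 TPM in YFP- libraries (log2 fold change 0.61, SE 0.59, adjusted p = 0.372), with the sign turned under quantile normalization and loess. Acta2 amounted to 0.0432% and 0.00919% of Actb in YFP+ libraries, against 1.36% and 1.56% in YFP- libraries. Tagln amounted to 0.421% and 0.166% of Tagln2, the transgelin of blood cells, in YFP+ libraries, against 5.66% and 6.10% in YFP- libraries. Myh11 amounted to 0.923% and 0.167% of Myh9, the non-muscle myosin heavy chain, in YFP+ libraries, against 13.2% and 9.65% in YFP- libraries. Des amounted to 0.1003% and 0.0942% of Vim, vimentin, in YFP+ libraries, against 0.673% and 0.588% in YFP- libraries. In all 4 ratios, which compare levels per gene length within a library, both YFP+ libraries were below both YFP- libraries. Of 14 listed relatives, all tested, 2 were called lower and 0 higher, beside 39.5% of all tested genes called lower. The tropomyosin Tpm4 was at 39.8 and 12.4 against 270.0 and 214 TPM (log2 fold change -3.37, adjusted p = 0.00451). Rgs10, a regulator of G protein signalling abundant in microglia, was at 253 and 98.8 against 1059 and 761 TPM (-2.50, adjusted p = 0.0122). Tpm4 and Rgs10 missed under all 3 other scalings, where 0 of the 14 were called lower. Median-ratio scaling called 2 of the 14 higher, beside 6.20% of all genes. Among the others named by level, Actg1 (0.29, adjusted p = 0.697, turned under quantile normalization and loess), the myosin light chain Myl6 (1.28, adjusted p = 0.126) and Rgs1 (1.38, adjusted p = 0.105) did not pass.

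**Figure D4:**
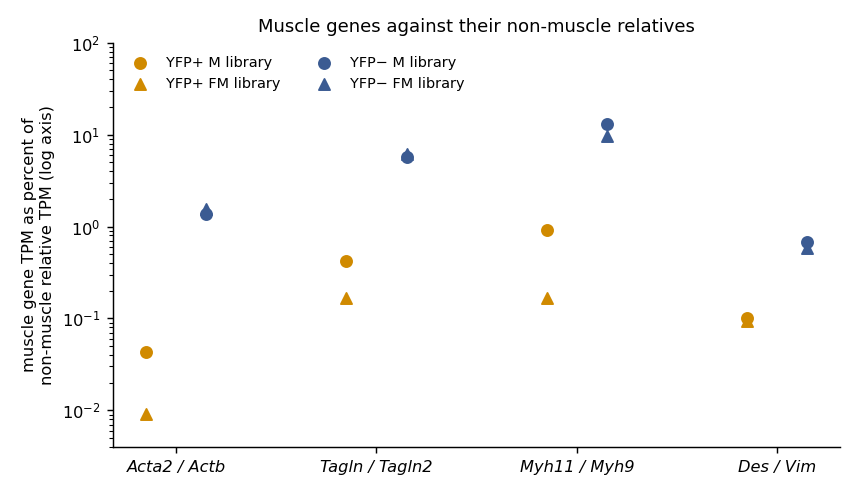
TPM of 4 muscle genes as a percent of the TPM of a non-muscle relative in the same library, on a log axis, with YFP+ libraries left of YFP- libraries; circles are M and triangles FM libraries. The YFP- points of each pair lie close together, and the YFP+ points lie below them by the widest margin for Acta2 over Actb.

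A search for CArG boxes, the sites bound by serum response factor, was made in the RefSeq promoter windows of GRCm38.p6 (250 bases before to 50 after a gene start). A box was taken as CC, 6 bases of which at least 5 are A or T, and GG, a pattern that reads alike on both strands. Windows were found for 7 of the 10 mural genes, and Acta2 was the 1 gene with a match, having 2. Tagln, Myh11 and Pdgfrb had no window and were not searched. At least 1 match stood in 9.98% of all 32851 windows and at least 2 in 0.822%, so 1 of 7 is near that share. Of 19 other smooth muscle genes with a window, Myl9 and Crip1 had matches. The 180 bases before the start are printed for Acta2 and Myl9, the listed contractile genes with 2 boxes, which are in capitals.
Acta2, chr19:34255374-34255553, minus strand: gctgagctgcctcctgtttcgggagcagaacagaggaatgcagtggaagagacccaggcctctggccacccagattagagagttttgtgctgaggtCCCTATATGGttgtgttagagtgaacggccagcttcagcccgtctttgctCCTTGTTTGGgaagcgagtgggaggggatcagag
Myl9, chr2:156775284-156775463, plus strand: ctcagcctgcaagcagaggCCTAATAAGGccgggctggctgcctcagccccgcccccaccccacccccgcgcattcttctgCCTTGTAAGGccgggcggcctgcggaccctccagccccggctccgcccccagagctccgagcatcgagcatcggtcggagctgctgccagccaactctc
The boxes begin 84 and 34 bases before the start in Acta2 and 161 and 99 bases before it in Myl9. A match of letters is a description and no evidence of binding. Myl9, the regulatory light chain of smooth muscle myosin, had 4.27 and 1.69 TPM in YFP+ libraries, against 57.6 and 44.8 TPM in YFP- libraries (log2 fold change -3.78, SE 1.14, adjusted p = 0.0061), but missed under quantile normalization (adjusted p = 0.0996) and loess (0.136). Crip1, whose window also holds 2 matches, had 919 and 1127 TPM in YFP+ libraries, against 769 and 227 TPM in YFP- libraries, and did not pass.

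Other genes of the same cells gave similar counts. Of 17 further pericyte genes 13 were tested, and 11 were called lower and 0 higher in YFP+ libraries, beside 39.5% of all tested genes called lower. Of the 13, 8 were below 1 TPM in both YFP+ libraries and so entered the test through the YFP- libraries. The forkhead factor Foxf2, which brain pericytes need, had 1.10 and 0.104 TPM in YFP+ libraries, against 23.5 and 17.2 TPM in YFP- libraries (log2 fold change -3.79, adjusted p = 0.00175). The adhesion molecule Mcam (-3.23, adjusted p = 0.0167) and the transcription factor Ebf1 (-2.79, adjusted p = 0.0328) also fell. Mcam and Ebf1 missed under all 3 other scalings, and Ebf1 with no filter (limma adjusted p = 0.0515). Foxf2 missed under quantile normalization (0.0514) and loess (0.106). The nucleotide-sugar receptor P2ry14, at 5.65 and 1.53 against 7.35 and 12.8 TPM, did not pass (-1.39, adjusted p = 0.260) and its sign turned after rescaling. Of the 11 called, Notch3, Foxs1 and S1pr3, named after their values were seen, changed sign under at least 1 rescaling.

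Of 20 further smooth muscle genes 14 were tested, and 10 were called lower and 0 higher, beside the 39.5% of all genes, with 6 of the 14 below 1 TPM in both YFP+ libraries. The integrin Itga8, called and named after its values were seen, lost its direction under quantile normalization (0.0038). Tropomyosin Tpm1 fell, at 9.91 and 1.92 TPM in YFP+ libraries, against 65.2 and 37.99 TPM in YFP- libraries (log2 fold change -3.17, adjusted p = 0.0193). The matrix protein gene Tinagl1 was at 11.9 and 12.7 against 97.5 and 102 TPM (-2.92, adjusted p = 0.0208), and like Des it had nearly equal YFP+ values. The filamin Flna (-1.29, adjusted p = 0.249, turned under median-ratio scaling) and the LIM protein Crip1 (1.28, adjusted p = 0.154, called higher under median-ratio scaling at 3.55 with adjusted p = 0.0414) did not pass, and Crip1 was the 1 gene of this list whose YFP+ libraries were both above both YFP- libraries.

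Among 20 further stellate genes 9 were tested, and 5 were called lower and 0 higher, not far from the 39.5% of all genes. Among them were Vipr1, Steap4, Colec10 and Colec11, the collectins being named after their values were seen, and 2 of the 5, Colec11 included, changed sign after rescaling. The intestinal peptide receptor Vipr1 was at 1.43 and 0.324 against 7.34 and 15.3 TPM (log2 fold change -2.70, adjusted p = 0.0113). The metalloreductase Steap4 was at 1.07 and 0.210 against 1.35 and 13.0 TPM (-1.86, adjusted p = 0.0125), and without the YFP- FM library its fold change was -0.57 (adjusted p = 0.568). Ecm1 (0.64, adjusted p = 0.579, called higher under median-ratio scaling at 2.87 with adjusted p = 0.0057) and the proteoglycans Bgn (-2.28, adjusted p = 0.0851) and Dcn (-2.12, adjusted p = 0.0746, turned under loess) did not pass. Of 12 fibroblast genes only 4 were tested, and Col1a2, Col3a1 and Pi16 were called lower, Pi16 with its sign turned under quantile normalization and loess. Under each of the 3 other scalings 0 of the 4 were called in either direction.

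Over the pericyte, smooth muscle and stellate lists together, 36 of 57 genes were tested and 26 were called lower and 0 higher, beside 39.5% of all tested genes called lower, with a median log2 fold change of -1.85 beside -1.73 for all tested genes. The 8 tested mural genes had a median of -2.37. After quantile normalization these medians were -0.19, -0.03 and -0.76, and 0 of the 36 were called in either direction. Under loess 0 were called as well, and median-ratio scaling called 6 lower and 2 higher. Without the YFP+ FM library 9 of the 36 were called lower, beside 7.06% of all genes, without the YFP- FM library 12, beside 7.56%, and without the YFP- M library 14, beside 11.5%. Without the YFP+ M library 31 were called lower, beside 67.5%.

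**Figure D5:**
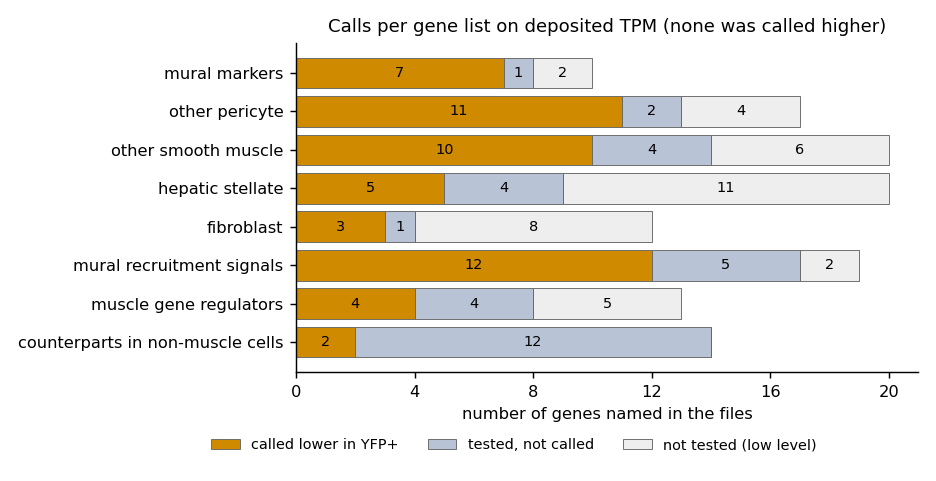
Number of genes per list that were called lower in YFP+ libraries (adjusted p under 0.05 on deposited TPM), tested and not called, or not tested because they did not reach 1 TPM in 2 libraries. The mural markers hold 7, 1 and 2 genes in these classes, and the counterparts in non-muscle cells 2, 12 and 0, beside 39.5% of all tested genes called lower.

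Signals that recruit mural cells were measured from both sides. Of 19 listed genes 17 were tested, and 12 were called lower and 0 higher, beside the 39.5% of all genes. None of the 12 turned after rescaling, but fewer were called. Quantile normalization called 5 lower and 1 higher, beside 1.67% and 1.21% of all genes. Median-ratio scaling called 7 lower and 1 higher, beside 6.45% and 6.20%. Loess called 1 lower and 0 higher, beside 0.327% and 0.531%. Pdgfb, the ligand of the Pdgfrb receptor made by endothelium, had 12.6 and 5.31 TPM in YFP+ libraries, against 100.1 and 122 TPM in YFP- libraries (log2 fold change -3.59, adjusted p = 0.00525). Pdgfb missed under quantile normalization (limma adjusted p = 0.0799), median-ratio scaling (0.0871) and loess (0.0953). In every library this ligand was more abundant than its receptor, which amounted to 3.61% and 1.37% of it in YFP+ libraries, against 2.92% and 5.57% in YFP- libraries. The TGF-beta receptors Tgfbr2 (-4.82, adjusted p = 0.000186) and Tgfbr1 (-4.60, adjusted p = 0.000549) and the sphingosine phosphate receptor S1pr1 (-4.96, adjusted p = 0.00025) also fell. Tgfbr2 passed under all 3 other scalings, whereas Tgfbr1 (limma adjusted p = 0.0549) and S1pr1 (0.0669) missed under loess. Endothelium and microglia express these receptors too, and the share of each cell type in them was not tested.

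Regulators of muscle genes were split between calls and no calls. Of 13 listed genes 8 were tested, and Mef2c, Hey1, Heyl and Fhl2 were called lower and 0 were called higher, a share near the 39.5% of all genes, Heyl and Fhl2 being named after their values were seen. Mef2c, a transcription factor of muscle and of microglia, was at 4.58 and 0.397 against 37.5 and 47.9 TPM (log2 fold change -3.96, adjusted p = 0.00439), and the Notch target Hey1 at 1.45 and 0.238 against 12.4 and 7.99 TPM (-2.65, adjusted p = 0.0102). Mef2c missed under quantile normalization (limma adjusted p = 0.0599) and loess (0.0881), and Hey1 under all 3 other scalings. Under quantile normalization and loess 0 of the 8 were called lower. Srf, which encodes serum response factor, was at 8.18 and 6.76 against 11.01 and 10.6 TPM (-0.49, adjusted p = 0.716). Its partner Mkl1 was at 30.5 and 21.1 against 14.2 and 64.1 TPM (-0.26, adjusted p = 0.840), and Klf4 at 112 and 173 against 77.1 and 123 TPM (0.51, adjusted p = 0.638). The signs of Srf and Mkl1 turned after rescaling, and under median-ratio scaling Mkl1 (1.93, limma adjusted p = 0.0422) and Klf4 (2.76, adjusted p = 0.0196) were called higher. Myocd, the myocardin gene specific to muscle, was named after its values were seen. It was listed at 0 in both YFP+ libraries and in YFP- FM, and stood at 0.0241 TPM in YFP- M. Of 12 genes of striated muscle, where Des is also made, Mylpf alone was tested. This fast-fibre myosin light chain had 1.64 TPM in YFP+ M and was listed at 0 in YFP+ FM, against 6.64 and 2.33 TPM in YFP- libraries, a fall that passed (log2 fold change -1.63, adjusted p = 0.0200) but turned under loess (0.030). Troponin Tnnt3 was at 0.711 and 0.119 TPM in YFP+ libraries, against 1.25 and 0.973 TPM in YFP- libraries, and alpha-actinin Actn2 at 0.377 and 0.0895 TPM in YFP+ libraries, against 1.63 and 0.0896 TPM in YFP- libraries. Acta1, skeletal muscle actin, was at 0.928 TPM in YFP+ M and listed at 0 in YFP+ FM, against 0.589 and 0.317 TPM in YFP- libraries. Actc1, Myh1, Myh4 and Myl1, named after their values were seen, were listed at 0 in all 4 libraries.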

How the data were processed

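The deposited tables hold, for each library, TPM, FPKM and read coverage per gene, made by the authors. Per the submitters' processing notes, reads were aligned with HISAT to GRCm38 (mm10); the program that computed the abundances, its annotation and the strandedness are not stated there. TPM values as deposited are scaled to 1e+06 per library, so a gene's TPM falls when others rise. The deposited FPKM served as an alternative, and the deposited coverage signal as the guide to depth, since numbers of reads are unknown and no counting interval can be given.

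Rows of one gene name were summed. Names with at least 1 TPM in at least 2 of the 4 libraries were tested on log2(TPM + 1) with limma 3.58.1 (under R 4.3.3, moderating variances along a trend in mean level), 2 YFP+ against 2 YFP- libraries, with Benjamini-Hochberg adjustment over all 12251 tested names and a threshold of 0.05. The estimated prior degrees of freedom were infinite, so all genes of one level shared one variance. Alternatives were another pseudocount (0.1), no filter, a filter at 5 TPM, quantile, median-ratio and cyclic loess scaling, FPKM, no mean trend, title start as a block, and each library left out. The procedure was tested on simulated data with normal noise, effects only in genes above the median level and no general shift between groups. Those settings differ from these data, so the simulation does not speak for the calls given here. Genes named from each list were taken from the 4 with the highest mean TPM and up to 2 with the largest fold change past the threshold. Genes of the fixed marker lists and the relatives compared with a mural gene were named as well. Others are said to be chosen after their values were seen. The 10 genes and all lists were chosen with earlier results of these data known. Tables and figures used Python 3.11.15, pandas 2.3.3, NumPy 2.4.6, matplotlib 3.10.9 and Biopython 1.88. A gene counted in the stellate list is not reported here by name.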

Additional observations from a re-analysis of the deposited data

How the results depend on the processing

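Of the 8 tested mural genes, 7 were called lower on deposited TPM. The count was 3 with a filter at 5 TPM (4 genes tested), 1 under quantile normalization, 4 under median-ratio scaling, 1 under cyclic loess and 4 with title start as a replicate block, and 3 to 7 when 1 library was left out, the lone sample being assumed to vary like the other group; it was 3 without YFP- M and 3 without YFP- FM, beside 11.5% and 7.56% of all genes called lower. It was 5 with a pseudocount of 0.1, 6 with FPKM, and 7 with no filter and with no mean trend. Of 36 related mural genes, 26 were called on deposited TPM, 9 with a filter at 5 TPM, 0 under quantile normalization, 6 under median-ratio scaling, 0 under loess, 15 under the replicate block and 9 to 31 when 1 library was left out, with 36 called with no filter (57 tested), 21 with a pseudocount of 0.1, 19 with FPKM and 19 with no mean trend. Deviations of libraries with the same title start correlated at -0.011 across 12251 genes, which are not independent, and with 2 such pairs the starts were not taken to pair the libraries. All genes called lower numbered 4834 of 12251 on deposited TPM, 205 under quantile normalization, 790 under median-ratio scaling, 40 under loess and 1726 under the block. They numbered 3078 with a pseudocount of 0.1 and 5641 with no mean trend, again of 12251 tested. With FPKM they numbered 3461 of 11242, with no filter 5055 of 17630 and with a filter at 5 TPM 2902 of 9184.

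Some log2 fold changes of the genes named by rule changed sign. Under quantile normalization these were Des (0.0014), Kcnj8 (0.17), P2ry14 (0.69), Pi16 (0.33), Mkl1 (1.46), Srf (1.48), Actb (-0.25) and Actg1 (-0.30). Under median-ratio scaling they were Vtn (0.16), P2ry14 (0.46), Flna (0.96), Thy1 (0.050), Srf (1.55) and Mkl1 (1.93, limma adjusted p = 0.0422). Under loess they were Kcnj8 (0.077), P2ry14 (0.83), Dcn (0.067), Pi16 (0.078), Mkl1 (1.53), Srf (1.71), Actb (-0.80) and Actg1 (-0.86). With FPKM they were Mkl1 (0.26) and Srf (0.0011). Mkl1 turned without YFP+ FM (0.00025) and without YFP- FM (0.79), and Actg1 without YFP- M (-0.16), with ranges over the 4 libraries left out of -1.30 to 0.79 for Mkl1 and -0.16 to 0.73 for Actg1. Among other called genes, Notch3 (0.071), S1pr3 (0.020), Itga8 (0.0038), Foxs1 (0.097) and Colec11 (0.50) turned under quantile normalization, Colec11 (0.037) under median-ratio scaling, and Foxs1 (0.10) and Colec11 (0.38) under loess, as did Mylpf (0.030). The cause was not tested. Genes near 0 TPM, such as Cspg4, Abcc9 and Myh11 in YFP+ FM, are limited by depth, and 2 libraries per group limit every error given here.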
